A study of Mus musculus with 12 samples.

Results

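The heat shock proteins and chaperones described here are the genes of the Hsp70 and Hsp110, Hsp90, chaperonin, DNAJ and BAG families in spinal motor neurons (SMNs) and in the posterior horn of the mouse spinal cord. They were chosen by symbol alone: every row with exactly 1 gene symbol that begins with Hspa, Hspd, Hspe, Hsph, Hsp90, Dnaja, Dnajb or Dnajc, or that is Bag or Cct followed by a number. This gave 76 genes in all, of which 72 of 20261 genes had values at the gene level and 75 had values at the exon level, with 1254 of 319246 probesets that carry 1 symbol. Dnajc3, Dnajc8, Hsp90ab1 and Hspe1 were found at the exon level only and Bag6 at the gene level only, and no row carried Hspa1b or Hspa1l as its 1 symbol.

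The study compared 3 SMN arrays with 3 posterior horn arrays of C57Bl/6 mice (C57BL/6J in the methods), hybridized to Affymetrix mouse exon arrays whose probesets cover single exons. By the methods, the mice were 6-week-old males with no treatment named, about 3000 SMNs with a diameter above 20 μm were laser-dissected in cervical cord sections 10 μm thick, taken from 3 mice, and the control was about 20 dorsal horn areas from 3 mice. The methods name no picking of single cells in those areas. The labels call the control posterior column. Neither source says whether a replicate number is 1 mouse, so p-values measure only the spread between these arrays, which may be technical.

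Molecular chaperones keep proteins from misfolding and aggregating. Hsp70 proteins bind exposed stretches of a client and let go of it in a cycle driven by ATP, J-domain proteins (the DNAJ families) bring the client and start ATP hydrolysis, and BAG and Hsp110 proteins act as exchange factors that end the cycle. Hsp90 takes over partly folded clients such as kinases and steroid receptors, the ring-shaped chaperonins (Hsp60 with Hsp10 in mitochondria, TRiC in the cytosol) enclose a client in a cavity, and heat shock factors switch on many of these genes under stress. Motor neurons are large cells with long axons, and mutations of several chaperone genes cause inherited motor neuropathies in humans.

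Motor neuron markers and most dorsal horn markers followed the dissection given in the methods. All 5 motor neuron markers (Chat, Slc18a3, Slc5a7, Isl1 and Prph) were higher in SMNs, with a summed gene-level intensity of 16720 to 17627 in SMN arrays and 137 to 269 in posterior horn arrays. Summed pan-neuronal markers lay at 24269 to 25645 in SMN and 19240 to 21078 in posterior horn arrays, with 4 of 8 higher and 2 of 8 lower. The lower ones were Syt1 (14.8-fold) and Map2 (2.56-fold). Of the glial and vascular markers, 6 of 7 astrocyte genes were lower in SMNs (summed 8275 to 8976 against 17456 to 18385) and S100b was higher, 7 of 7 oligodendrocyte genes were lower (14474 to 15676 against 27363 to 28852), 7 of 8 microglial genes were lower (1876 to 1943 against 4724 to 5382) and 5 of 5 endothelial genes were lower (587 to 671 against 1934 to 2571). No gene of these glial and vascular lists had a mean intensity below 16 in SMNs. Of the dorsal horn genes 3 of 4 were lower (203 to 248 against 3727 to 4238), and Lbx1 and Tac2 were below 16 in SMNs. Of 4 inhibitory genes 2 were lower (4512 to 5050 against 12917 to 13858), and Slc32a1 and Slc6a5 did not pass. The markers that differed did so between the same groups of arrays as every difference below, and their part in the results was not tested. The median gene-level intensity of an array lay between 32.9 and 35.2, and the exon-level median between 4.49 and 4.52 on the log2 scale.

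Chaperone genes were more often higher than lower in SMNs. At the gene level 18 of 72 were higher and 4 were lower by limma with Benjamini-Hochberg adjustment, against a background of 15.3% of all genes higher and 13.7% lower. The median log2 fold change of the 72 genes, on the log2(intensity + 1) scale as for all gene-level fold changes here, was 0.33 and that of all genes was 0.03. It was above 0 in 53 of 72 genes (73.6%, against 51.6% of all genes). All 3 SMN arrays lay above all 3 posterior horn arrays in 37 of the 72 (background 26.2%), and below them in 10 (background 22.8%). Chaperone genes are bright, however: among the genes at least as bright as their lower quartile (an intensity of 287), 18 of 54 chaperone genes were higher and 2 of 54 were lower, against a background of 26.3% and 21.6%. The median fold change, the share above 0 and the separation of arrays were set against all genes only, without regard to brightness. In these bulk samples fewer cells of a type and less RNA per cell cannot be told apart. Only 6 genes were higher when SMN array 1 or 2 was left out, and 11 when SMN array 3 or posterior horn array 3 was. The 4 lower genes became 1 when SMN array 1 or 3 or posterior horn array 2 was left out, and 2 when posterior horn array 1 or 3 was. Bag3, Hspa12a, Dnaja4, Dnajc15, Dnajb2 and Dnajc21 (higher) and Dnajc1 (lower) passed whichever of the 6 arrays was left out.

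**Figure D1:**
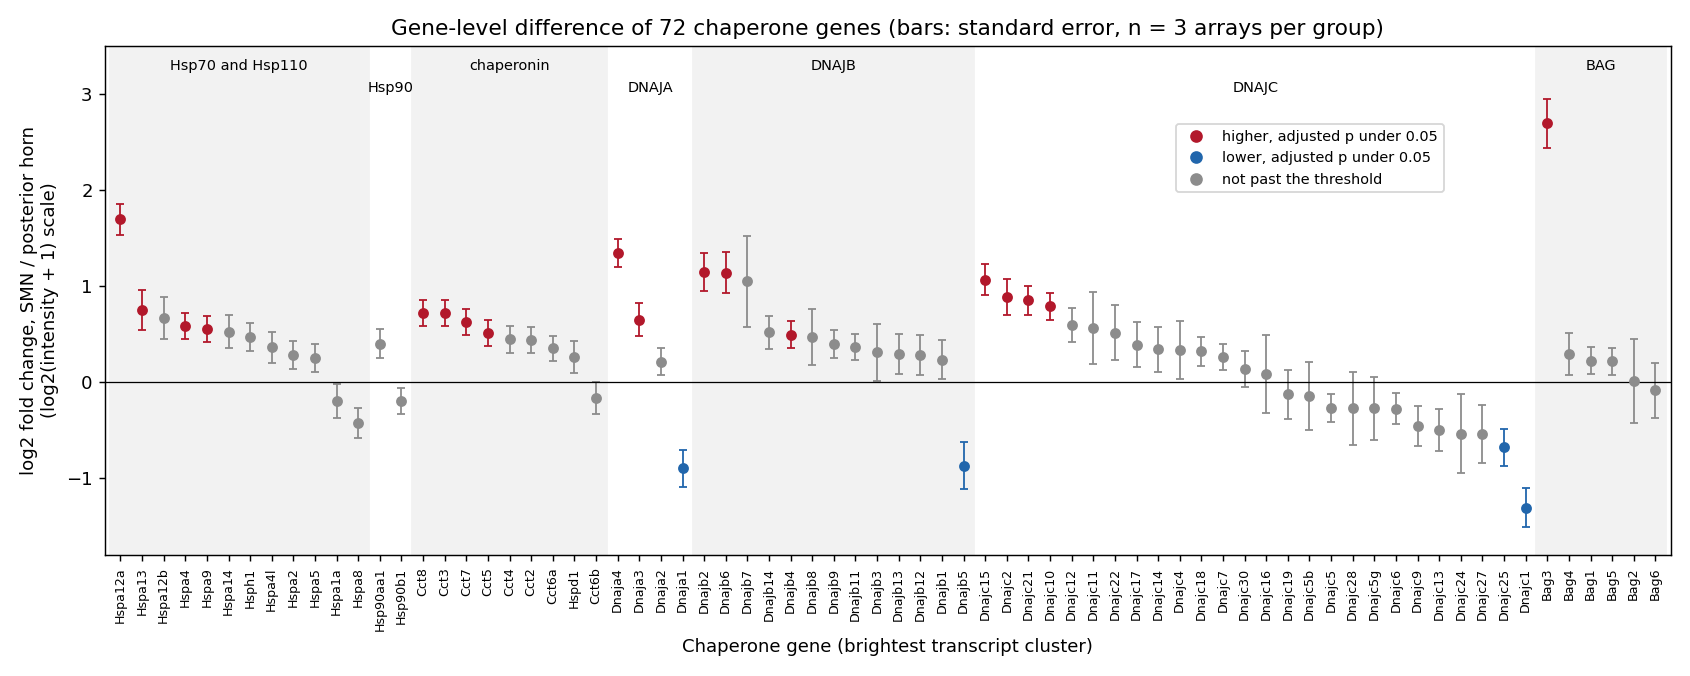
Each point is 1 of the 72 chaperone genes, grouped by family along the x axis, and the y axis is its log2 fold change of SMN over posterior horn at the gene level with the standard error (n = 3 arrays per group). Red points are the 18 genes higher in SMNs and blue points the 4 lower ones at an adjusted p under 0.05, and Bag3 stands highest at 2.69.

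Bag3, the exchange factor that links Hsp70 to the small heat shock protein Hspb8 and to autophagy of damaged proteins, had the largest difference of the 72 genes. In the order of the replicate numbers, its gene-level intensity read 5519, 5587 and 5432 for SMNs against 619, 833 and 1201 for the posterior horn. The groups lay far apart, and the posterior horn arrays spread more widely than the SMN arrays. The log2 fold change was 2.69 ± 0.26 (SE), that is 6.46-fold, with an adjusted p of 0.00195 by limma. At the exon level all 13 probesets of Bag3 were higher on average in SMNs and 11 of 13 passed over the whole table, with fold changes between 0.44 and 3.97 on the log2 scale. The median of its probesets gave 1.99 ± 0.15 (adjusted p = 0.000255). Its brightest probeset read 12.12, 12.37 and 12.34 in SMN and 10.46, 10.93 and 10.64 in posterior horn arrays on the log2 scale.

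None of the other 5 BAG genes passed. Bag1, the founding exchange factor of the family, read 3058, 2895 and 2801 in SMN and 2580, 2414 and 2508 in posterior horn arrays. Its SMN arrays lay above the posterior horn arrays by a log2 fold change of only 0.22 ± 0.14 (adjusted p = 0.276). Bag6, which shields membrane proteins that have missed their target, had overlapping groups and a log2 fold change of -0.09 ± 0.29, which turned to 0.19 without posterior horn array 3. Bag2, Bag4 and Bag5 lay between 0.01 and 0.29 and did not pass.

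Of the 12 Hsp70 and Hsp110 genes 4 were higher and 0 were lower, against 15.3% and 13.7% of all genes and 26.3% and 21.6% of bright genes. Hspa12a, a distant Hsp70 relative, read 3628, 3485 and 3404 in SMN and 970, 1057 and 1241 in posterior horn arrays. No array of one group came near the other, and the log2 fold change was 1.69 ± 0.16 (3.23-fold, adjusted p = 0.00178). Of its 20 probesets 8 passed, all higher, and the median of its probesets gave 1.11 ± 0.26 (adjusted p = 0.0253). Its relative Hspa12b was dimmer, at 361, 310 and 317 against 164, 268 and 201, with a log2 fold change of 0.67 that did not pass at the gene level (adjusted p = 0.0685) and 0.72 that passed as a median of probesets (adjusted p = 0.0169).

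The other 3 higher genes of the family differed less. Hspa13, an Hsp70 of microsomes, was higher by 0.75 ± 0.21 on the log2 scale, and Hspa4, an Hsp110-type exchange factor, by 0.59 ± 0.13. Hspa9, the Hsp70 of the mitochondrial matrix that pulls in imported proteins, read 4593, 4769 and 4468 in SMN and 3184, 3216 and 3047 in posterior horn arrays, a log2 fold change of 0.55 ± 0.13 (adjusted p = 0.0303). All 3 had every SMN array above every posterior horn array, as 26.2% of all genes did, which the threshold on these same values makes likely. Hspa9 passed in 0 of the 6 fits that leave out an array (adjusted p 0.0509 to 0.107), and Hspa13 and Hspa4 in 1 of 6, without posterior horn array 1. The median of probesets gave 0.51 ± 0.20 for Hspa13 (adjusted p = 0.137). Hsph1, the heat-inducible Hsp110, read 2609, 2948 and 2693 against 2094, 1882 and 1976 and did not pass (log2 fold change 0.47 ± 0.14, adjusted p = 0.0562).

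Hspa1a, the classical heat-inducible Hsp70, showed no such separation. It read 569, 499 and 536 in SMN and 513, 697 and 643 in posterior horn arrays, with overlapping groups and a log2 fold change of -0.20 ± 0.17 (adjusted p = 0.445). As a median of its 4 probesets the value was 0.28 ± 0.31 (adjusted p = 0.609), although only 1 of the 4 was above 0 on its own. Hspa1a has a near-identical copy, Hspa1b, and their signals may be shared.

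Of the 9 chaperonin genes at the gene level 4 were higher (15.3% of all genes, 26.3% of bright ones) and 0 were lower. In the cytosolic TRiC ring, which folds actin and tubulin, Cct3, Cct5, Cct7 and Cct8 were higher in SMNs and Cct2, Cct4 and Cct6a did not pass. All 7 had every SMN array above every posterior horn array, as 26.2% of all genes did, with log2 fold changes from 0.35 to 0.72. Cct8 read 3997, 3980 and 3747 in SMN and 2294, 2418 and 2414 in posterior horn arrays (0.72 ± 0.14, adjusted p = 0.0134). Cct3 read 3085, 3058 and 2981 against 1878, 1862 and 1815 (0.72 ± 0.13, adjusted p = 0.0127). The arrays of a group lay close together and the groups were clearly apart, although Cct3 and Cct8 did not pass without SMN array 1 or 2 (adjusted p 0.0543 to 0.0587). Of the 6 fits that leave out an array Cct7 passed in 2, those without posterior horn array 1 or 3, and Cct5 in 0. Cct6b, a subunit known from testis, read 477, 461 and 537 against 485, 614 and 560, with overlapping groups (-0.17 ± 0.16). Its probesets were dim, with a median of 3.52 on the log2 scale (below the array medians) against 9.02 for the gene-level row, a gap of 5.50 that was the widest of the 71 genes with both values.

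In the mitochondrial pair of Hspd1 (Hsp60) and Hspe1 (Hsp10), which form a barrel and its lid, the exon level carried most of the signal. The median of the 5 Hspe1 probesets was 10.88, 10.79 and 10.80 in SMN and between 9.82 and 10.004 in posterior horn arrays on the log2 scale. These groups did not overlap, and the difference was 0.88 ± 0.14 (1.85-fold, adjusted p = 0.00526). The median of the 18 Hspd1 probesets was 12.46, 12.51 and 12.51 in SMN and 11.96, 12.21 and 11.95 in posterior horn arrays. The groups were apart here too, but the difference of 0.45 ± 0.14 did not pass (adjusted p = 0.0718).

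**Figure D2:**
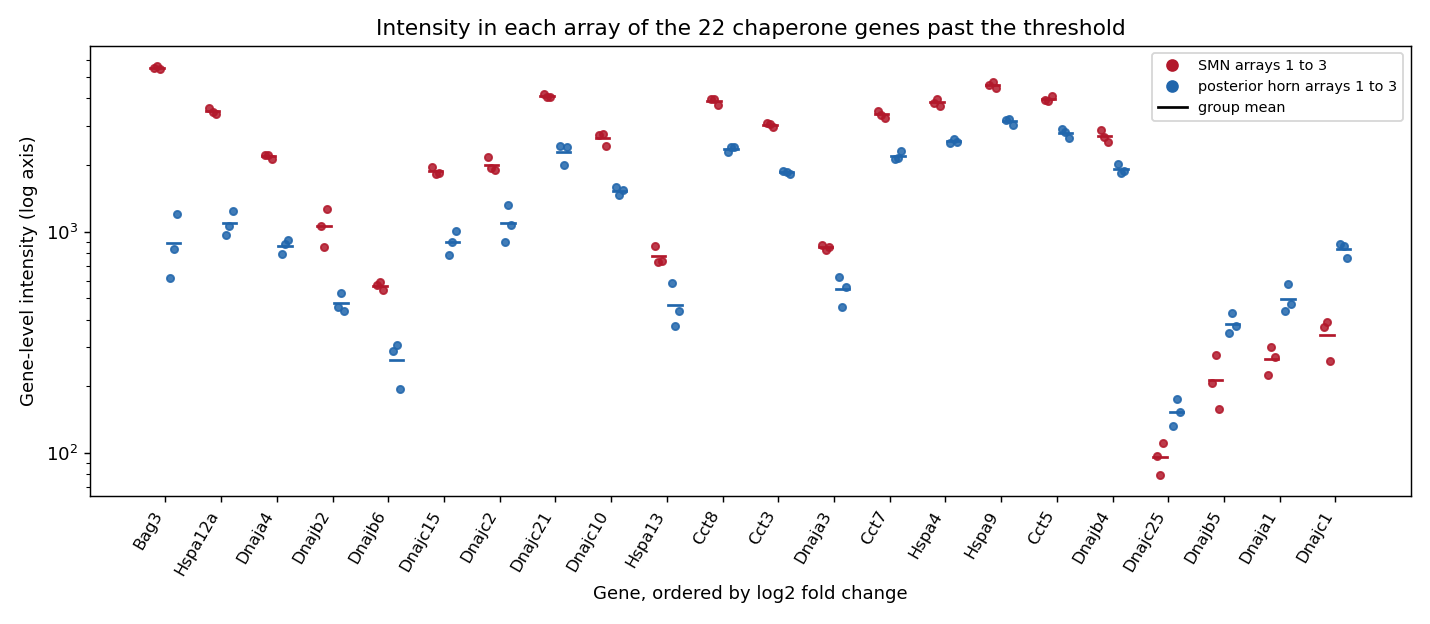
Gene-level intensity on a log axis in each of the 3 SMN arrays (red) and 3 posterior horn arrays (blue) for the 22 chaperone genes past the threshold, with a bar at each group mean, ordered by log2 fold change. In every one of these genes the groups do not overlap, which the threshold on these same values makes likely. Of all genes, 26.2% had every SMN array above and 22.8% below the posterior horn arrays. The gap is widest for Bag3 at 5432 to 5587 against 619 to 1201.

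Genes with an Hsp90 symbol did not pass in either direction by their brightest cluster or median of probesets. Hsp90b1, the Hsp90 of the endoplasmic reticulum, read 4557, 4235 and 4279 in SMN and 5028, 5200 and 4765 in posterior horn arrays, so the SMN arrays lay lower, but by only 0.20 on the log2 scale (-0.20 ± 0.14, adjusted p = 0.333). The constitutive Hsp90ab1 had a median of probesets of 12.64, 12.61 and 12.55 in SMN and 12.30, 12.37 and 12.43 in posterior horn arrays (0.23 ± 0.13, adjusted p = 0.297). Hsp90aa1, the inducible cytosolic form, was 0.40 ± 0.15 at the gene level (adjusted p = 0.103) and 0.11 ± 0.14 as a median of 49 probesets (adjusted p = 0.663). Another transcript cluster of Hsp90aa1, slightly dimmer, read 593, 606 and 529 against 247, 209 and 227 and did pass, at 1.34 ± 0.15 (adjusted p = 0.00317).

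J-domain genes held calls in both directions. In the DNAJA family, closest to the bacterial DnaJ, Dnaja4 read 2219, 2229 and 2135 in SMN and 792, 882 and 921 in posterior horn arrays. The groups were well separated, with a log2 fold change of 1.34 ± 0.14 (2.54-fold, adjusted p = 0.00258), 6 of 11 probesets higher and 1.67 ± 0.17 as a median of probesets. Dnaja3, a mitochondrial J-protein, was higher by 0.65 ± 0.17 (adjusted p = 0.0373) but passed in 1 of the 6 fits that leave out an array, without posterior horn array 1, and its median of probesets was 0.27 ± 0.22 (adjusted p = 0.475). Dnaja2, the brightest of the family, read 4415, 4646 and 4370 against 3943, 3648 and 4003 and did not pass (0.21 ± 0.14).

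Of the 13 DNAJB genes 3 were higher (15.3% of all genes, 26.3% of bright ones) and 1 was lower (13.7% and 21.6%). Dnajb2, a neuronal J-protein that hands ubiquitylated clients to the proteasome and whose mutations cause a distal motor neuropathy in humans, read 1066, 850 and 1263 in SMN and 456, 528 and 438 in posterior horn arrays. The SMN arrays spread widely but all lay above the posterior horn arrays, with a log2 fold change of 1.15 ± 0.20 (adjusted p = 0.0105), against 0.50 ± 0.18 as a median of probesets (adjusted p = 0.108). Dnajb4, a heat-inducible partner of cytosolic Hsp70, was higher by 0.49 ± 0.14 on the log2 scale (adjusted p = 0.0491) but passed in 0 of the 6 fits that leave out an array, and was 0.27 ± 0.19 as a median of probesets (adjusted p = 0.393). Dnajb5 was lower, at 208, 278 and 157 against 350, 430 and 373 (-0.87 ± 0.24, adjusted p = 0.0429), and as a median of probesets was -0.34 ± 0.16 (adjusted p = 0.191). Its call held in 1 of those 6 fits, without SMN array 2. Dnajb1, the classical Hsp40 induced by heat, read 978, 1331 and 1178 against 901, 882 and 1190 with overlapping groups (0.23 ± 0.20).

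In the DNAJC family, the largest and most varied, 4 of 26 genes were higher, a share equal to the background of 15.3%, and 2 were lower (background 13.7%). Its median log2 fold change was 0.11. Dnajc15, of the mitochondrial import motor, read 1952, 1822 and 1845 in SMN and 787, 900 and 1006 in posterior horn arrays. The groups did not overlap (1.07 ± 0.16, adjusted p = 0.00648), and all 8 of its probesets lay above 0 in log2 fold change. Dnajc21, which works in ribosome assembly, read 4187, 4075 and 4057 against 2440, 2002 and 2414 (0.85 ± 0.15, adjusted p = 0.0114). Dnajc2, a J-protein that sits on the ribosome together with Hspa14 and meets the nascent chain, was higher by 0.88 ± 0.19 (adjusted p = 0.0202, and 2 of 6 fits without an array, those without posterior horn array 1 or 2). Hspa14 itself did not pass, at 0.52 ± 0.17 (adjusted p = 0.0711).

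Dnajc1, a J-protein of the endoplasmic reticulum membrane, was the most clearly lower chaperone gene. It read 371, 392 and 261 in SMN and 883, 865 and 758 in posterior horn arrays, with no overlap, and was lower by -1.31 ± 0.20 on the log2 scale (adjusted p = 0.0078). At the exon level 18 of 20 probesets were below 0 and the median of probesets was -0.77 ± 0.24 (adjusted p = 0.064). Dnajc25 was dim, at 97.0, 79.1 and 111 against 133, 175 and 153 (-0.68 ± 0.20, adjusted p = 0.0473), passed in 0 of the 6 fits without an array, and was 0.01 ± 0.40 as a median of probesets.

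The J-proteins of synaptic vesicles did not pass. Dnajc5 (cysteine string protein), which guards the release machinery on the vesicle, read 1645, 1633 and 1619 in SMN and 2084, 1765 and 2081 in posterior horn arrays. Dnajc6 (auxilin), which recruits Hspa8 to strip clathrin from vesicles, read 2757, 2643 and 2186 against 3230, 3043 and 2900. Both had every SMN array below every posterior horn array, as 22.8% of all genes did, with log2 fold changes of -0.27 ± 0.15 and -0.28 ± 0.16. Yet as medians of probesets they were 0.09 ± 0.15 and 0.29 ± 0.15. A slightly dimmer cluster of Dnajc5 read 1453, 1307 and 1663 against 1964, 1497 and 1017, with overlapping groups (0.03 ± 0.27). Dnajc7, the brightest of the 72 genes, which passes clients between Hsp70 and Hsp90, read 6391, 6801 and 6686 against 5504, 5490 and 5615 (0.26 ± 0.13, adjusted p = 0.202).

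The gene-level values of 5 very abundant chaperones did not represent their exon probesets. For Hspd1, Dnaja1, Hsp90aa1, Hspa8 and Dnajb6 the brightest transcript cluster with 1 symbol differed from the median of the gene's own probesets by -5.06 (Hspd1) to -2.70 (Dnajb6) on the log2 scale, whereas the median of this difference over the 71 genes with both values was 1.06. Among all genes compared, 232 of 16600 (1.40%) had such a deficit of over 2 log2 units. Hspa8, the constitutive Hsp70 and one of the most abundant cytosolic proteins, read 709, 872 and 706 in SMN and 1070, 1006 and 993 in posterior horn arrays at the gene level, but 13.30, 13.23 and 13.30 against 13.09, 13.08 and 12.99 as a log2 median of 34 probesets. The levels thus point in opposite directions, at -0.43 ± 0.16 (adjusted p = 0.0908) and 0.22 ± 0.13 (adjusted p = 0.312), and 33 of the 34 probesets lay above 0.

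Dnaja1, a main cytosolic partner of Hspa8, was called lower at the gene level, at 224, 301 and 271 against 439, 579 and 469 (-0.90 ± 0.19, adjusted p = 0.0194). Its call held in 3 of the 6 fits without an array (without SMN array 2, posterior horn array 1 or posterior horn array 3). Yet 26 of its 28 probesets were above 0 and the median of probesets was 0.28 ± 0.14 (adjusted p = 0.221). A single dim Dnaja1 probeset was lower and passed, at 6.20, 6.33 and 6.53 in SMN and 8.29, 7.93 and 7.99 in posterior horn arrays (-1.72, adjusted p = 0.0201), while its brightest probeset was level between the groups at 13.37, 13.53 and 13.50 against 13.36, 13.50 and 13.42. Dnajb6, which keeps polyglutamine proteins from aggregating, was higher at the gene level (574, 594 and 544 against 289, 308 and 195, 1.14 ± 0.21, adjusted p = 0.0132, and not without SMN array 1 or 2). As a median of 32 probesets it was -0.16 ± 0.15 (adjusted p = 0.542). Without these 5 genes, 17 chaperone genes were higher and 3 lower.

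**Figure D3:**
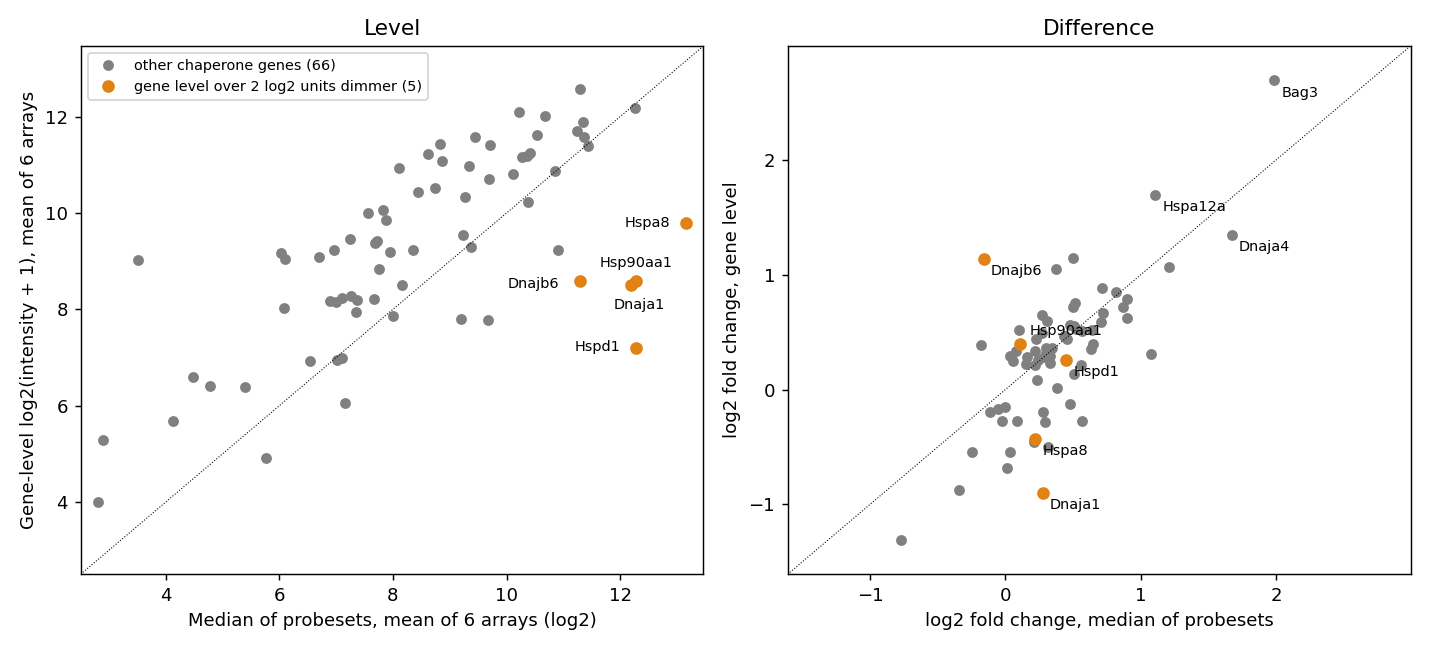
The left panel plots the gene-level log2(intensity + 1) against the median of the gene's probesets, each as the mean of 6 arrays, and the right panel the log2 fold changes at these levels, for 71 chaperone genes with the line of equality dotted. The 5 orange genes, with a gene-level value over 2 log2 units below their probesets, include Dnaja1 and Hspa8, whose fold changes differ in sign between the levels, while Bag3, Hspa12a and Dnaja4 are above 1 in both.

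Tested as single probesets, 32 of 1254 chaperone probesets were higher in SMNs and 1, of Dnaja1, was lower, adjusted over all probesets of the array (background 1.44% higher and 1.48% lower). Bag3 held 11 of the 32, Hspa12a 8 and Dnaja4 6. The others belonged 1 each to Hspa12b, Hspa9, Hsp90aa1, Cct3, Dnajb6, Dnajc2 and Dnajc10. No single array could be left out without the 32 falling, to 14 without posterior horn array 1, 10 without posterior horn array 2 or 3, 5 without SMN array 1, 4 without SMN array 2 and 3 without SMN array 3, and the 1 lower probeset to 0 in each.

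With the median of its probesets taken as 1 value per gene, 18 of 75 chaperone genes were higher and 0 were lower (background 9.86% higher and 6.91% lower), and 65 of 75 were above 0 (86.7%, against 58.6% of all genes). These backgrounds were not limited to bright genes. Of the 22 genes called at the gene level 13 were also called in this way, all higher at both levels: Bag3, Hspa12a, Hspa4, Hspa9, Cct3, Cct5, Cct7, Cct8, Dnaja4, Dnajc2, Dnajc10, Dnajc15 and Dnajc21. No gene was called in opposite directions. The other 5 were Hspe1, Hspa12b, Dnajc19 of the mitochondrial import motor (0.48 ± 0.13), and Dnajb9 (0.65 ± 0.18) and Dnajb14 (0.64 ± 0.16), J-proteins of the endoplasmic reticulum that take part in the disposal of misfolded proteins. The Dnajc19 call lay near the threshold (adjusted p = 0.0485). At the gene level Dnajc19 read 174, 228 and 238 in SMN and 170, 252 and 289 in posterior horn arrays, with the opposite sign (-0.13 ± 0.25, adjusted p = 0.739).

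The fold change differed along the gene in 18 of 75 chaperone genes by limma's diffSplice test, close to the background of 21.4%. They included Hsp90aa1 (adjusted p = 2.62e-25), Dnaja1 (8.51e-22), Bag3 (9.55e-11) and Hspa12a (5.06e-09). In Hsp90aa1, 1 of 49 probesets was higher at 1.54 on the log2 scale (10.68, 10.65 and 10.46 in SMN and 9.21, 8.88 and 9.07 in posterior horn arrays), whereas its brightest probeset read 13.63, 13.60 and 13.58 against 13.34, 13.47 and 13.46. In Bag3 every probeset was above 0 and they differed in size only. The count was 12 without SMN array 1 and between 15 and 19 without any other array.

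**Figure D4:**
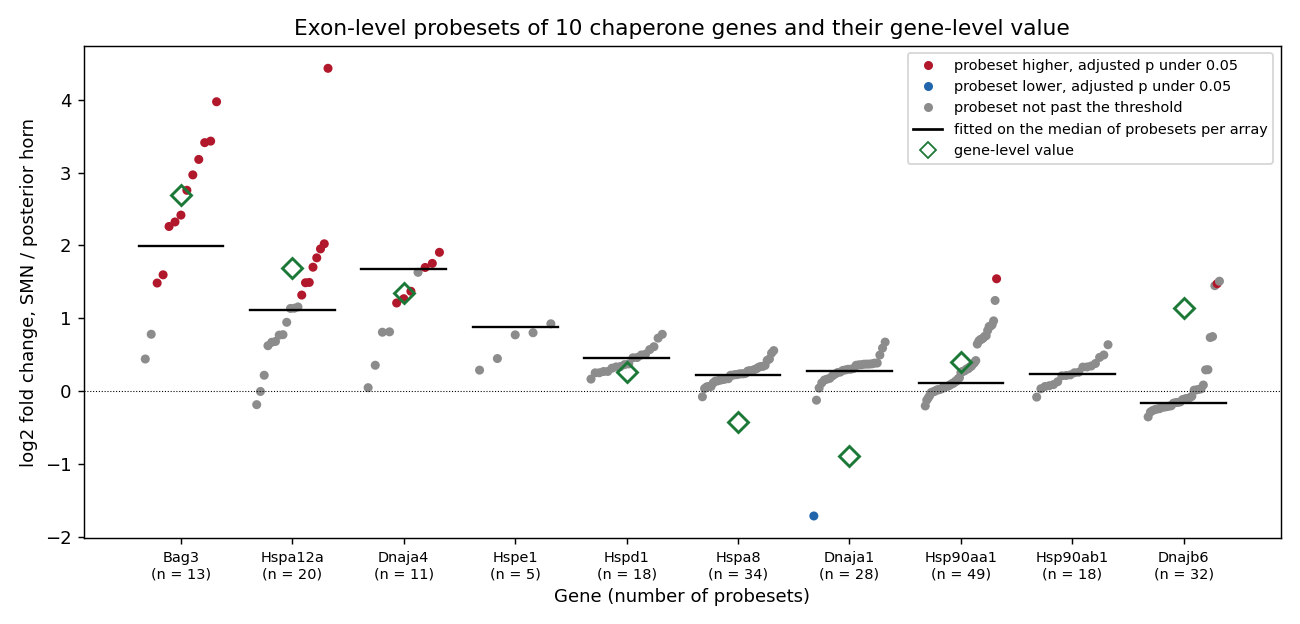
Each point is 1 probeset of 10 chaperone genes and the y axis is its log2 fold change of SMN over posterior horn, red or blue where it passed over the whole array. The black bar is the fit on the median of the probesets in each array and the green diamond the gene-level value, which lies above the bar for Bag3, at 2.69 against 1.99, and far below it for Dnaja1, at -0.90 against 0.28.

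By compartment, the backgrounds at the gene level were 15.3% higher and 13.7% lower of all genes, and 26.3% and 21.6% of bright genes. As medians of probesets they were 9.86% and 6.91% of all genes. The 8 chaperone genes listed for the mitochondrion with a gene-level value held 3 that were higher (Hspa9, Dnaja3 and Dnajc15) and 0 that were lower. As medians of probesets 4 of 9 were higher (Hspa9, Hspe1, Dnajc15 and Dnajc19), and Dnajc19 was -0.13 and not called at the gene level. Of 7 genes of the endoplasmic reticulum 2 were higher (Hspa13 and Dnajc10) and Dnajc1 was lower, and as medians of probesets 2 of 8 were higher (Dnajc10 and Dnajb9) and 0 lower, with neither Hspa13 nor Dnajc1 called. Dnajb14 is not in this list. Dnajc10, a J-protein that opens disulfide bonds of proteins bound for disposal, read 2737, 2774 and 2433 in SMN and 1585, 1467 and 1540 in posterior horn arrays (0.79 ± 0.14, adjusted p = 0.0119, and 0.0517 and 0.0544 without SMN array 1 or 2). Hspa5 (BiP), the main Hsp70 of this compartment, read 2702, 2805 and 2480 against 2147, 2451 and 2142. Its SMN arrays lay above the others by a small step that did not pass (0.25 ± 0.15, adjusted p = 0.264), and the median of its probesets gave 0.06 ± 0.19. Of 8 genes listed as heat-inducible 2 were higher at the gene level (Bag3 and Dnajb4) and 1 lower (Dnaja1), and of 9 as medians of probesets 2 were higher (Bag3 and Hspe1).

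The promoters of 61 of the 76 genes were in the RefSeq table of GRCm38.p6, which covers 250 bases before to 50 bases after each gene's start. They were searched on both strands for a heat shock element of 3 units, the binding motif of heat shock factors, written GAANNTTCNNGAA or TTCNNGAANNTTC, and for the ER stress element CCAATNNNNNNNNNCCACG, which Hspa5 is known for. The heat shock element was in 4 of 61 chaperone genes (6.56%), in 0.662% of the 27025 genes of the table and in 0.603% of its 32851 promoters. Among the chaperone genes, Hspe1 and Hspd1 share the same stretch, which is counted for both. The ER stress element was in 3 of 61 (4.92%), in 0.137% of genes and in 0.119% of promoters. The windows that hold a match upstream of the start are shown for the genes whose values are given here, with the matched bases in capitals.
Hspe1: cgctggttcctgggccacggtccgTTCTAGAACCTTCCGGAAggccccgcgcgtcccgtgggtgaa
Dnajb6: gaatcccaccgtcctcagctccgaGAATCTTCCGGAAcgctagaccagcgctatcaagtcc
Hspa5: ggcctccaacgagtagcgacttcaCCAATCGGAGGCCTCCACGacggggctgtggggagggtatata
Hsp90b1: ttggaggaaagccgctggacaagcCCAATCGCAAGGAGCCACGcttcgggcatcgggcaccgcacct
Dnajc3: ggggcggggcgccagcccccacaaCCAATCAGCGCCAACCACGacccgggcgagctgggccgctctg

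The Hspe1 window is chr1:55088035-55088100 on the plus strand. Read on the minus strand it is also the upstream window of Hspd1, its neighbour in the opposite direction, and in it 2 overlapping matches make up the capitals. The genes of this shared promoter gave 0.88 (Hspe1) and 0.45 (Hspd1, not passed) as medians of probesets. The Dnajb6 window is chr5:29735828-29735888, and its fold change depended on the level as given above. Hsph1 was the fourth gene with the heat shock element, with 2 matches that begin 15 and 36 bases after its start.

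The ER stress element windows are chr2:34772001-34772067 for Hspa5 (plus strand), chr10:86705614-86705680 for Hsp90b1 (minus strand, with another match nearer to its start) and chr14:118937803-118937869 for Dnajc3 (plus strand). Dnajc3 encodes an inhibitor of the kinase that halts translation under ER stress. None of these 3 genes passed: as medians of probesets Hspa5 was 0.06, Hsp90b1 -0.11 and Dnajc3 -0.17 (9.51, 9.78 and 9.52 in SMN arrays, within the range of the posterior horn arrays). Of the 15 genes higher at the gene level that are in the table, 1 held the heat shock element and 0 the ER stress element, and of the 46 others 3 and 3. A match is a description of the letters in this window and not a measured binding site, and the factors were not measured here.

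The partners of these chaperones were read from lists chosen with earlier results of these data known. The shares of all genes to set beside their counts are 15.3% higher and 13.7% lower at the gene level, and 9.86% and 6.91% as medians of probesets. Of bright genes, 26.3% were higher and 21.6% lower at the gene level. Of 14 Hsp90 co-chaperones 10 were higher and 1 was lower at the gene level, and 9 of 14 were higher as medians of probesets. The list counts Trap1, an Hsp90 of mitochondria without an Hsp90 symbol. Trap1 was higher at both levels, by 1.15 ± 0.18 (adjusted p = 0.00776) and, as a median of probesets, 0.96 ± 0.14 (adjusted p = 0.00428). Fkbp5, an immunophilin of the steroid receptor complex, read 531, 432 and 553 in SMN and 110, 77.6 and 195 in posterior horn arrays. All SMN arrays lay above the others, by 2.07 ± 0.35 on the log2 scale (adjusted p = 0.0095). The median of probesets gave 1.82 ± 0.19. Unc45a, a co-chaperone for myosin folding, was higher by 1.39 ± 0.27, whereas its muscle relative Unc45b was lower at the gene level (-0.96 ± 0.23, adjusted p = 0.0272) and 0.27 ± 0.15 as a median of probesets.

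Of 10 small heat shock proteins 3 were higher (15.3% of all genes, 26.3% of bright ones). Hspb8, the partner of Bag3 in the disposal of misfolded proteins and a gene whose mutations cause distal motor neuropathy in humans, read 4057, 4071 and 4004 in SMN and 706, 401 and 522 in posterior horn arrays. The groups were far apart, with a log2 fold change of 2.93 ± 0.23 (7.64-fold, adjusted p = 0.00113) and 3.27 ± 0.23 as a median of probesets. Hspb2 and Cryaa were higher at the gene level by 0.76 and 0.53 and did not pass as medians of probesets. Hspb1 (Hsp27) was 0.42 ± 0.15 at the gene level on a dim row (97.1, 90.2 and 107 against 67.5, 77.2 and 74.4, adjusted p = 0.0879) and passed as a median of probesets, at 1.52 ± 0.23 (2.87-fold, adjusted p = 0.00465).

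Of 11 co-chaperones of Hsp70, 3 were higher (Grpel1, Hspbp1 and Stip1). For this and the next lists, the share of all genes was 15.3% higher and 13.7% lower. Of bright genes it was 26.3% and 21.6%. Grpel1, the exchange factor of Hspa9, was higher by 0.96 ± 0.15, and 0.59 ± 0.23 as a median of probesets (adjusted p = 0.128). Stip1, which joins Hsp70 to Hsp90, passed at both levels, at 0.67 ± 0.14 and 0.83 ± 0.14. Of 8 genes of prefoldin and other chaperonin parts 4 were higher: the prefoldin subunits Pfdn4 (1.02 ± 0.15), Pfdn1 and Vbp1, and Pdcl (1.39 ± 0.17), while as medians of probesets Pfdn4 and Pfdn1 were higher and Pfdn5 was lower (-0.71 ± 0.13). Among 13 genes of folding in the endoplasmic reticulum P4hb (0.83 ± 0.14), Pdia3 and Pdia4, which form disulfide bonds, were higher and Xbp1, a transcription factor of the unfolded protein response, was lower (-0.60 ± 0.14, adjusted p = 0.0276). As medians of probesets P4hb, Pdia3 and Clgn were higher and 0 genes of this list were lower. Neither Pdia4 (0.08 ± 0.13, adjusted p = 0.762) nor Xbp1 (-0.27 ± 0.14, adjusted p = 0.251) passed in this way. Of 3 heat shock factors with a gene-level value Hsf4 and Hsf2 were higher, at 1.99 ± 0.44 and 1.07 ± 0.16, and as a median of probesets Hsf4 was 0.85 ± 0.18 and Hsf2 -0.11 ± 0.28. Hsf1, the main factor of the heat shock response, had an exon-level value only, 0.10 ± 0.15 (adjusted p = 0.733).

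**Figure D5:**
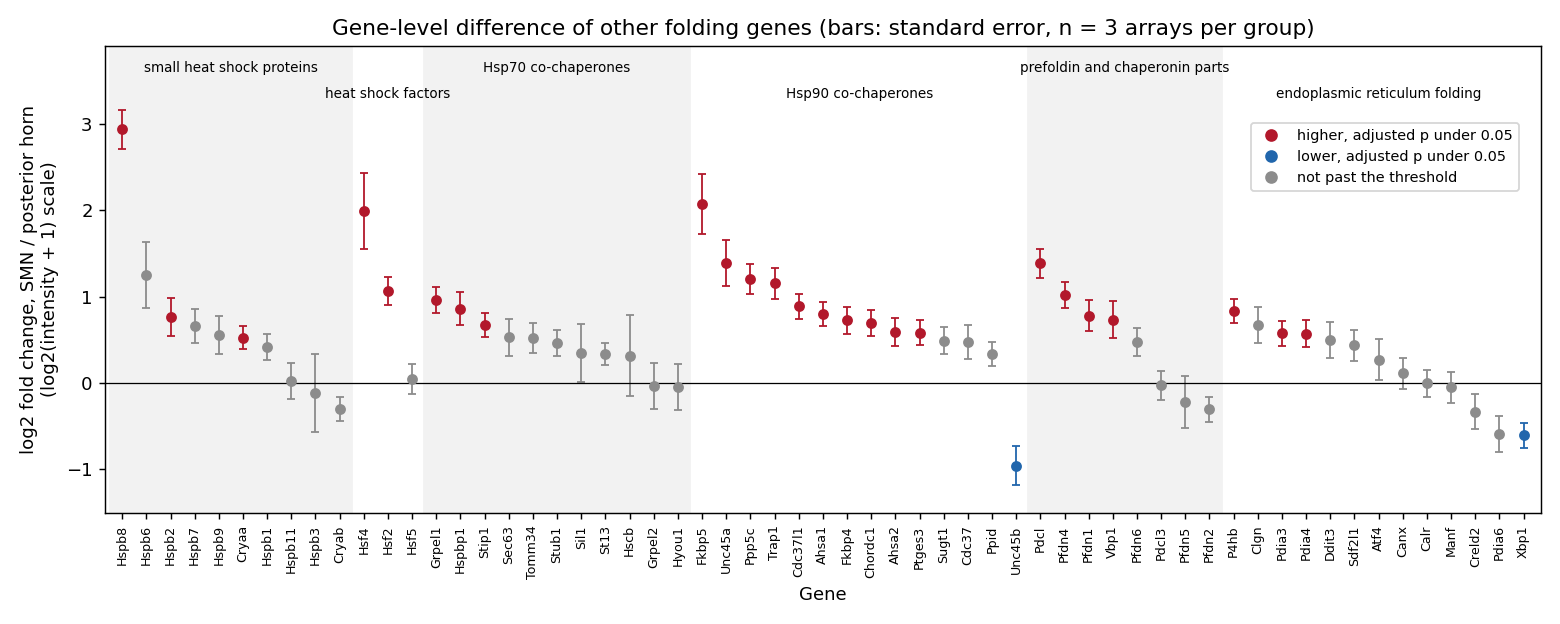
Each point is 1 gene of 6 lists of other folding genes and the y axis is its log2 fold change of SMN over posterior horn at the gene level with the standard error (n = 3 arrays per group). Red genes were higher and blue genes lower at an adjusted p under 0.05, with Hspb8 highest at 2.93 and Unc45b lowest at -0.96.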

How the data were processed

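RNA of 3 SMN and 3 posterior horn samples was hybridized to exon arrays, and the authors deposited the same 6 arrays as linear intensity per transcript cluster (gene level) and as log2 signal per probeset (exon level). Affymetrix Expression Console 1.3.1.187 is listed as the software by the submitters' processing notes. How background was corrected, how probes were summarized and which build was used: not given in the sources used here. Array medians over all rows were alike, and no further normalization was applied. Such medians do not show whether the bright rows of the arrays are alike. To each intensity 1 was added and the log2 taken, which understates the change of dim genes.

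Rows were named from the platform annotation, and 102 of 102 chaperone rows matched a RefSeq gene. Where a symbol had more than 1 cluster, its brightest by the mean of the 6 arrays stands for it (18 chaperone genes). Rows with several symbols were left out. Groups were compared by the moderated two-sided test of limma 3.58.1 (R 4.3.3), adjusted over 24343 transcript clusters or 1195555 probesets, then on the median of each symbol's probesets, and with diffSplice over genes. An adjusted p under 0.05 is called higher or lower. The gene-level fit was also run on simulated data with independent noise in each row. That run cannot show whether the calls in these arrays are right. Exact permutation of 3 against 3 arrays cannot give a p below 0.1, and precision is limited by how few arrays there are.

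Members, lists and alternatives were chosen with earlier results of these data known. Named were, per family, the 3 largest rises and falls past the threshold and the brightest gene, 18 genes named by symbol (such as Hspa8, Hsph1 and Bag6), and from each list of partners the 2 largest rises and falls. Dnajc10, Dnajc19, Dnajb9, Dnajb14, Dnajc3, Hspa12b, Hspa14, Cct5 and other genes outside this rule were named after their values were seen. Alternatives were another normalization, offset, floor, filter, variance model, test, block, set of rows and leaving out each array. The study's RNA-seq is not used here.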

Additional observations from a re-analysis of the deposited data

How the results depend on the processing

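Of 18 higher and 4 lower chaperone genes, the higher count was 29 with a floor of 16, 30 with a variance trend and robust estimation, 37 (7 lower) with the methods' t-test unadjusted, 2 (0 lower) when all rows of the table were tested, which adjusts over far more rows, and 15 to 25 under the other normalizations, offsets, filters and the adjusted t-test (2 lower). The median of probesets gave 0 lower genes. Among the named genes, quantile normalization removed the calls of Hspa4 (0.43), Hspa9 (0.40), Dnajb4 (0.39) and Dnajb5 (-0.82). It also lowered the bright Cct8 (0.58) and Dnajc7 (0.11), and raised Dnajb6 (1.18) and Hspa13 (0.78). Leaving out 1 array gave 6 to 16 higher and 1 to 3 lower genes. No pairing by replicate number was detected (correlations of the deviations 0.034, -0.0075 and 0.021). These correlations over all rows cannot show whether arrays with the same number came from 1 mouse. The replicate block gave 8 higher and 2 lower genes, 2 higher and 0 lower probesets and 23 genes with differences between probesets. Of 32 higher and 1 lower probesets, there were 67 and 2 without the dimmest 50%, 77 and 4 when only probesets with 1 symbol were tested, and 0 lower with the adjusted t-test, and leaving out 1 array gave 3 to 14 and 0. The differences between probesets in 18 genes became 12 to 19 without 1 array, settings that were added after seeing the data, as was the count without 5 genes with dim gene-level rows. Of the 71 genes with both values, 58 had the same sign at the gene level and as a median of probesets. Among genes named by rule, this median reversed Dnaja1 (0.28), Dnajb6 (-0.16), Dnajc25 (0.0086), Dnajc5 (0.0855), Dnajc6 (0.29), Hspa1a (0.28) and Hspa8 (0.22). Leaving out posterior horn array 3 reversed Bag6 (-0.34 to 0.19 over the arrays left out). The cause was not tested. The calls of partner genes and the 18 calls on medians of probesets were not refitted without each array. Over the named genes, 431 values kept their direction and side of the threshold under an alternative, 100 lost and 20 gained the call. Bag3 and Hspa12a passed under all 16 alternatives run for them.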
